A study of Mus musculus with 4 samples.

Results

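Cytosolic ribosomal proteins are described here as the rows of the deposited CPM values whose symbol starts with Rpl, Rps or Rplp followed by a digit, without the Rps6k kinases (10 rows) and without names marked as pseudogenes by -ps (6 rows). The rule gave 85 of the 17013 listed genes. They were 46 proteins of the large 60S subunit, 30 proteins of the small 40S subunit, 8 related copies with close relatives among those proteins, and Rps19bp1, a protein that binds Rps19 and is not a ribosomal subunit. The study asked how taking up fat changes macrophages in an environment like that of osteonecrosis. Primary macrophages were grown from the bone marrow of wild-type (WT) C57BL/6 mice with M-CSF, seeded on Transwell inserts and kept for 24 h with medium made from freeze-thawed, necrotic abdominal fat of mice. Con cells (labelled FAT_con) received the fat control medium, the middle layer after centrifugation, and Fat cells (labelled FAT_high) received the high-fat-containing medium, the top layer, and both groups received artificial necrotic bone fluid (aNBF). Each group had 2 libraries of polyA RNA. Nothing in the labels says whether the 2 replicates of a group came from separate mice or cultures, so the p-values measure only the spread between these libraries, which may be technical.

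The cytosolic ribosome joins a small subunit, which reads the messenger RNA, to a large subunit, which forms the peptide bonds. Its proteins are encoded by single genes scattered over the genome, and most of these genes have left many processed pseudogenes, intronless copies made from its messenger RNA. The messenger RNAs of ribosomal proteins typically start with a run of pyrimidines, the 5′ terminal oligopyrimidine (TOP) stretch, through which mTORC1 and LARP1 control their translation, so that their synthesis can change without a change in transcript level.

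Because reads of 75 bases were counted, the sequence that each gene shared with other annotated genes was measured first. Every stretch of 75 bases in 1 representative GENCODE transcript per gene was searched in the other transcripts with up to 2 mismatches. Of the 85 genes, 81 shared at least 1 stretch with another gene, 73 shared more than 20% and 51 more than 50%, with a median of 56.6%. Without mismatches the median was 38.3%. The median gene shared stretches with 10 annotated pseudogenes, and Rpl7a, a large-subunit protein, with 133, the highest number. Among the 4 that shared none were Rpl39l, Rpl3l and Rps19bp1. In addition, 15 of the genes overlapped another annotated gene. How the authors' counting treated reads that match several genes is not given in the sources used here, so the levels of genes with near-identical copies are uncertain.

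The shared sequence is shown by 2 stretches and 1 pseudogene copy, from GENCODE on build GRCm38. The Rps27a stretch lies in coding exon 5 at chr11:29546301-29546375 on the minus strand, and it occurs letter for letter in 4 other genes and with up to 2 mismatches in 7, all pseudogenes. The Rpl4 stretch, in exon 2 at chr9:64174863-64174937 on the plus strand, occurs with mismatches in 1 other gene, the processed pseudogene Gm5835 at chr1:143094490-143094564 on the minus strand, and capitals mark the 2 bases that differ between them. These stretches were chosen after the values were seen, as examples from the gene that passed the test and from the gene with the most reads.
Rps27a: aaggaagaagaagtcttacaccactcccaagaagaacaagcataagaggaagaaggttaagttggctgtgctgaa
Rpl4: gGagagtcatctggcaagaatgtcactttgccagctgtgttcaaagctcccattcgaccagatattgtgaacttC
Gm5835: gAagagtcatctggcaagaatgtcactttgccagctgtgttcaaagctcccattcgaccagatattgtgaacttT

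The TOP stretch was searched on the gene's strand as a C at the annotated start followed by at least 4 letters that are each C or T. RefSeq promoter sequences on build GRCm38.p6 were matched for 64 of the 85 genes. The stretch stood exactly at the annotated start in 14 of them (21.9%), against 3.01% of all 27025 genes with a promoter sequence. When it could begin up to 5 bases away, 30 held it (46.9%), against 21.2% of all genes. A stretch of 24 bases around the annotated start is given for Rps6, Rplp2, Rps10 and Rpl10a, which are described below, with capitals marking the stretch where it was found. The windows lie at chr4:86857354-86857377 on the minus strand, chr7:141447641-141447664 on the plus strand, chr17:27635231-27635254 on the minus strand and chr17:28328461-28328484 on the plus strand, in that order.
Rps6: gaagtcgggcCTCTTTTTCgtgac
Rplp2: cagcgtcttcCTTTCgccgccgga
Rps10: gcgcacgcccCTTCCTTTCCagcc
Rpl10a: gcccccccagcggccgcaaactgc

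The search describes the annotated start only. Among the genes tested, the median log2 fold change was 0.09 for the 13 with the stretch at the start and −0.03 for the 48 with a promoter sequence and no stretch there. No gene of either kind was called higher or lower, beside 9.0% of all genes tested. When the stretch could begin up to 5 bases away, the medians were 0.03 for the 29 tested genes with it and −0.03 for the 32 without.

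No difference in the share of reads on the ribosomal protein genes was detectable between the media. They held 0.900% and 0.904% of the reads in Con replicates 1 and 2 and 0.859% and 0.938% in Fat replicates 1 and 2. The Fat libraries lay on either side of both Con libraries, and the difference of the means was −0.0031 percentage points (exact permutation test, two-sided, p = 1.0; with 2 libraries against 2 the smallest p is 0.333). As a share of the TPM, which is scaled for transcript length, they held 2.47% and 2.50% in Con and 2.42% and 2.67% in Fat, again with overlapping groups (p = 1.0, exact permutation test). The library totals ran from 33573852 to 40785872 reads, and 1 read was worth between 0.0244 and 0.0295 CPM.

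Measured per length, the genes spanned a wide range of levels. The mean TPM over the 4 libraries ran from 0.384 for Rpl3l to 1591 for Rplp1, with a median of 142. The highest were Rplp1, an acidic protein of the ribosomal stalk that recruits translation factors, then Rpl32 of the large subunit at 1317 TPM and Rps14 of the small subunit at 1239 TPM. Ribosomes hold most of these proteins in equal number, whereas the listed TPM of Rps13, a 40S protein, averaged 3.04, that of Rpl24, a 60S protein at the subunit interface, 2.21, and that of Rpl23a, which lies beside the exit of the nascent peptide, 1.92. These 3 were the lowest genes that passed the filter used for testing, which asked for at least 0.5 CPM in at least 2 libraries. Across the 85 genes, the TPM was lower where more of the transcript was exactly shared (Spearman rho −0.45 across genes, which are not independent replicates and share the same libraries). With 2 mismatches allowed, rho was −0.12.

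The range of levels by shared sequence had exceptions in both directions. Of the genes with under 20% of their stretches exactly shared, the 20 had a median of 583 TPM, the 40 genes with 20 to 60% shared had 218 TPM and the 25 genes with over 60% shared had 31.5 TPM, with the bounds chosen after the values were seen. Rps18 held 436 TPM with 77.8% of its stretches exactly shared, while Rps29, a small zinc-binding 40S protein, was listed at 1.03 TPM with 31.3% shared. The symbol Rpl34-ps1, left out by the rule, was listed with 3690, 3943, 3746 and 4473 reads beside 3696, 3952, 3750 and 4494 for Rpl34 in Con replicates 1 and 2 and Fat replicates 1 and 2. The counts of these rows were nearly equal in each library, and whether they hold the same reads was not tested.

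**Figure D1:**
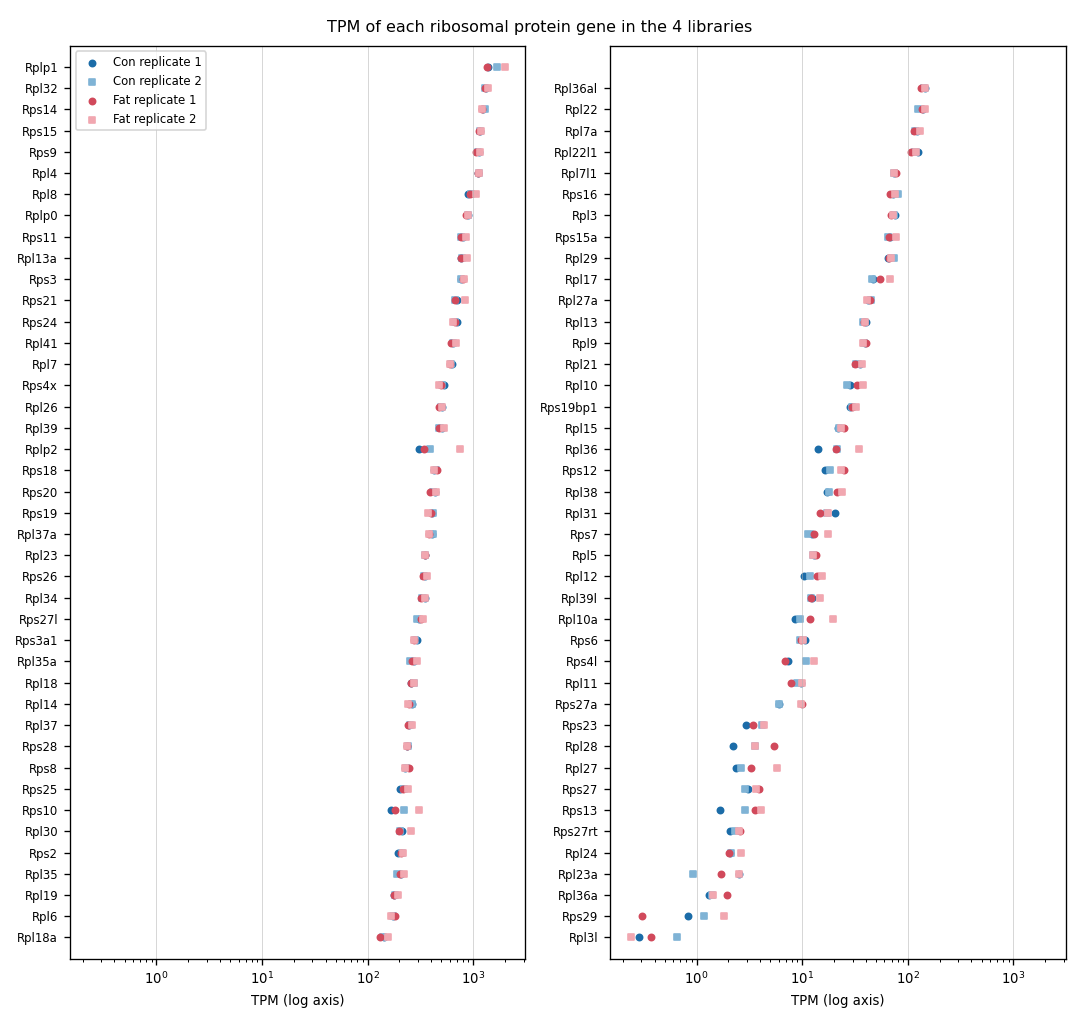
TPM (log axis) of 83 of the 85 ribosomal protein genes in the 4 libraries, ordered by the mean, with blue points for Con and red points for Fat. The genes run from Rplp1 at a mean of 1591 TPM to Rpl3l at 0.384 TPM, and for most genes the 4 points lie close together beside this range.

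Of the 85 genes, 4 did not reach the filter and were not tested. Rps29 had 5 and 8 reads in Con and 2 and 13 in Fat, and Rpl3l, the striated muscle relative of Rpl3, had 7 and 18 reads in Con and 10 and 7 in Fat. Rpl36a, a 60S protein, had 10 and 12 reads in Con and 16 and 13 in Fat, and Rps27rt, an intronless relative of Rps27, had 11 and 14 reads in Con and 15 and 16 in Fat. At these depths counting error alone is large. The Fat reads lay on either side of the Con reads for Rps29, and the groups met or overlapped for Rpl3l. For Rpl36a both Fat libraries had more reads than both Con libraries, but in CPM Fat replicate 2 lay below Con replicate 2, so its groups overlapped. For Rps27rt both Fat libraries were above both Con libraries in reads and in CPM, as in 29.4% of all genes tested.

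Fat and Con were then compared for the other 81 genes with limma on log2(CPM + 0.1), fitted across the 12470 genes that passed the filter. Rps27a rose in Fat and no ribosomal protein gene fell, at an adjusted p under 0.05. That is 1 of 81 genes, beside 9.0% of all genes tested (3.99% higher and 5.0% lower). At an unadjusted p under 0.05 there were 10 ribosomal protein genes, 7 higher and 3 lower, beside 24.1% of all genes. With edgeR's quasi-likelihood test on the reads recovered from the CPM values, Rps27a was again the 1 gene called (9.13% of all genes), and DESeq2 called none (8.5% of all genes). Both Fat libraries lay above both Con libraries for 15 genes (29.4% of all genes) and below them for 19 (26.2% of all genes). The median log2 fold change was 0.01, as it was over all genes tested, with a range from −0.27 to 0.72. In a bulk sample, fewer cells of a type and less RNA per cell cannot be told apart.

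**Figure D2:**
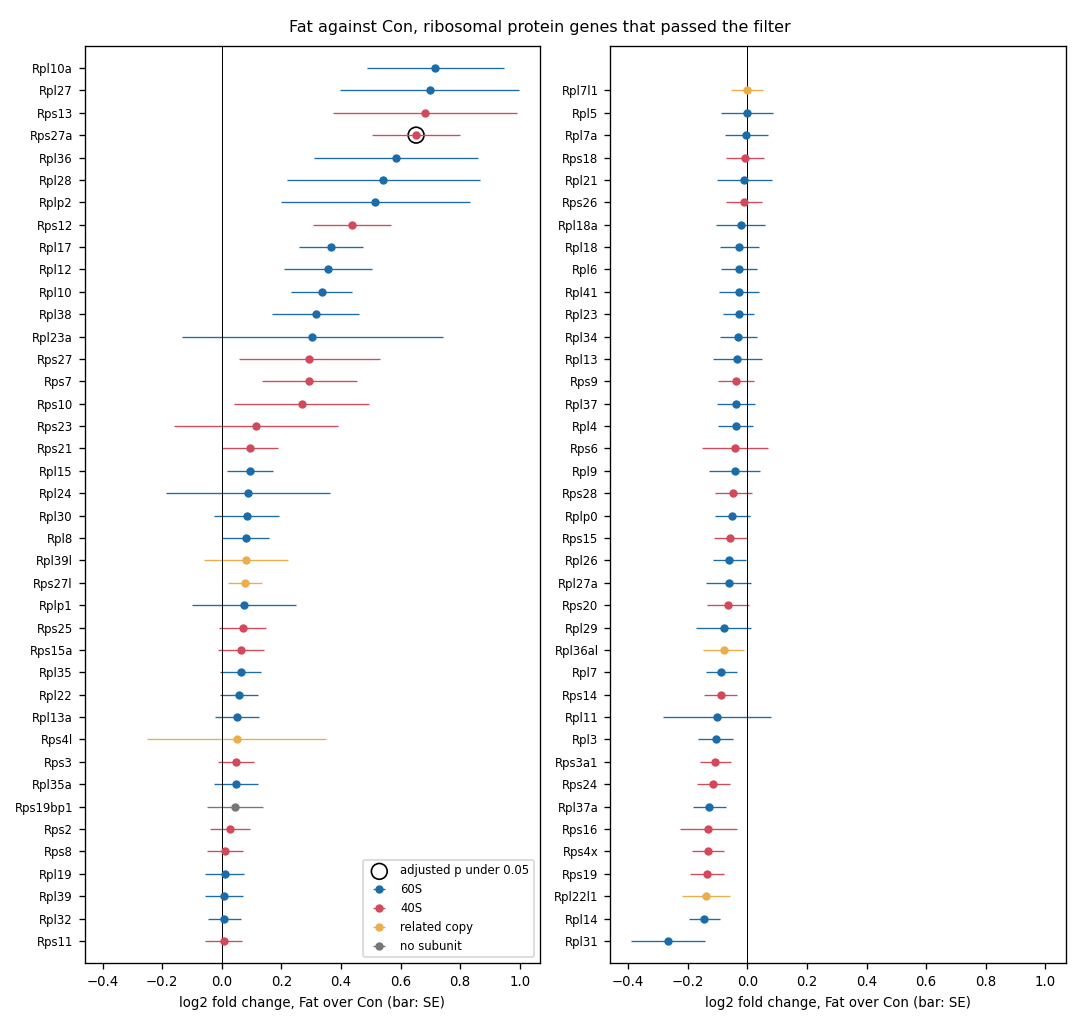
Log2 fold change of Fat over Con for 79 of the 81 ribosomal protein genes that passed the filter, with the standard error as a bar, coloured by subunit. The genes run from Rpl10a at 0.72 to Rpl31 at −0.27, and Rps27a, ringed, is the 1 gene past an adjusted p of 0.05.

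Rps27a encodes ubiquitin fused to the 40S protein S27a and so feeds both the ubiquitin pool and the ribosome. It had 2.24 and 2.32 CPM in Con and 3.67 and 3.61 CPM in Fat, from 76, 87, 137 and 148 reads. Both Fat libraries were above both Con libraries, and the spread within either group was small. The log2 fold change was 0.65 ± 0.15 (SE, n = 2 per group; limma, adjusted p = 0.036), and 0.70 on TPM (adjusted p = 0.017). Leaving out any 1 of the 4 libraries kept it between 0.63 and 0.68 with an adjusted p between 0.075 and 0.13, past the threshold in none. A total of 55.5% of its stretches occurred exactly in another gene, among 19 pseudogenes that shared some stretch with it, so its reads cannot be assigned to 1 locus with certainty.

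Beside Rps27a, the largest positive log2 fold changes were those of Rpl10a (0.72 ± 0.23), Rpl27 (0.70 ± 0.30), Rps13 (0.68 ± 0.31), Rpl36 (0.58 ± 0.28) and Rpl28 (0.54 ± 0.32), none past the threshold (adjusted p from 0.11 to 0.36, limma, n = 2 per group). Rpl10a, a 60S protein near the site where the spent tRNA leaves, had 3.21 and 3.71 CPM in Con and 4.45 and 7.39 CPM in Fat. Its groups did not overlap, and Fat replicate 2 was far above the rest. Rpl36, a 60S protein, had 2.62 and 4.08 CPM in Con and 3.86 and 6.37 CPM in Fat, so its groups overlapped. Rpl27 and Rps13 stood at 0.442 to 0.906 CPM in Con and 0.938 to 1.93 CPM in Fat, levels of 15 to 79 reads a library. Both were higher in each Fat library than in each Con library. Rpl28, at 17 and 31 reads in Con and 45 and 33 reads in Fat, had overlapping groups in CPM, where Fat replicate 2 (0.805) lay below Con replicate 2 (0.826).

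The most negative log2 fold changes were small. Rpl31, which lies at the mouth of the peptide exit tunnel, had 11.7 and 10.1 CPM in Con and 8.25 and 9.83 CPM in Fat (−0.27 ± 0.12, adjusted p = 0.24), each Fat library below each Con library. Rpl14 (−0.14 ± 0.05), Rpl22l1 (−0.14 ± 0.08), Rps19 (−0.14 ± 0.06), Rps4x (−0.13 ± 0.05) and Rps16 (−0.13 ± 0.10) followed, with adjusted p from 0.14 to 0.46. Rps19, a 40S protein whose gene is often mutated in Diamond-Blackfan anaemia, had 117 and 123 CPM in Con and 113 and 106 CPM in Fat, and Rps4x, the X-linked 40S protein S4, had 211 and 208 CPM in Con and 196 and 187 CPM in Fat. In both genes each Fat library was below each Con library, by an amount that did not pass the test.

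The sign of the differences went with the level of the gene. The 47 genes above 100 TPM had a median log2 fold change of −0.03, and in 17 of them both Fat libraries were below both Con libraries while in 2 both were above. Over all 1425 genes at that level the median was 0.00, with 471 (33.1%) below and 395 (27.7%) above. The 23 genes between 10 and 100 TPM had a median of 0.06 (0.02 over all 6428 genes tested at that level), with 9 above and 2 below, beside 32.9% above and 25.6% below over all genes there. Below 10 TPM the 11 genes that passed the filter had a median of 0.29 (0.01 over all 4617), with 4 above and 0 below, beside 1153 and 1157 over all genes there, and 4 more genes did not pass. Across the 81 genes the log2 fold change and the TPM had a Spearman rho of −0.43, and the log2 fold change and the exactly shared percentage 0.12 (across genes, which share libraries and are not replicates). The bounds of 10 and 100 TPM were chosen after the values were seen. The part of shared sequence or of counting noise at low levels in this pattern was not tested.

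**Figure D3:**
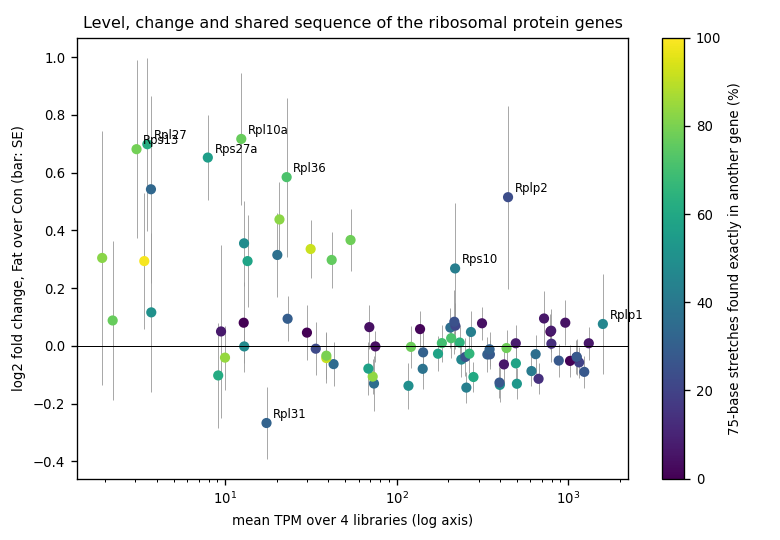
Log2 fold change of Fat over Con (SE as bars) against mean TPM (log axis) for the 81 tested ribosomal protein genes, coloured by the percentage of 75-base stretches found exactly in another gene. The 47 genes above 100 TPM sit around a median of −0.03, with Rplp2 at 0.52 and Rps10 at 0.27 above the rest, and the genes below 10 TPM reach 0.70.

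By subunit, the 45 tested 60S genes had a median log2 fold change of −0.00, with 22 positive and 23 negative. None was called, beside 9.0% of all genes tested. The 29 tested 40S genes had a median of 0.01, with 15 positive, 14 negative and Rps27a called. The 12 genes with at most 20% of their stretches shared hold the values least open to misplaced reads. The 11 of them that passed the filter had a median of 0.05 and a range from −0.06 to 0.08, with none called, beside 9.0% of all genes. Rpl4, a 60S protein lining the exit tunnel and the gene with the most reads of all 85, had 726 and 743 CPM in Con and 709 and 721 CPM in Fat (−0.04 ± 0.06, adjusted p = 0.74).

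Rps6, the 40S protein that the S6 kinases phosphorylate downstream of mTORC1, had 6.69 and 6.18 CPM in Con and 6.16 and 6.34 CPM in Fat. The groups overlapped and the log2 fold change was −0.04 ± 0.11 (adjusted p = 0.87), with 84.2% of its stretches exactly shared. Rps19bp1, which shared none, had 10.8 and 11.5 CPM in Con and 11.1 and 12.0 CPM in Fat, also overlapping (0.05 ± 0.09, adjusted p = 0.82).

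Fat replicate 2 stood apart in a subset of the genes. It was the highest library in 43 of the 81 genes, and Fat replicate 1 was the lowest in 37. Over all 12470 genes tested the same libraries were highest in 3672 and lowest in 2666. The median deviation from the gene's own mean, on the log2 scale, was −0.01 and 0.02 in Con replicates 1 and 2, and −0.05 and 0.06 in the Fat replicates in the same order. By these medians, the 2 Fat libraries differed from each other by more than the groups did.

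**Figure D4:**
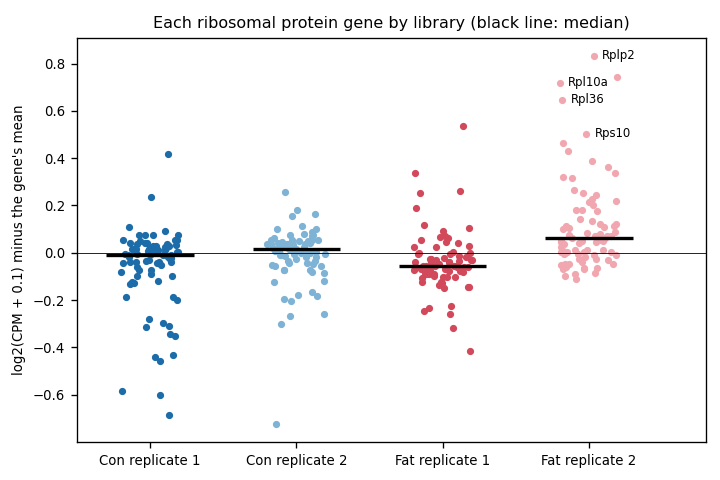
Deviation of each of the 81 tested ribosomal protein genes from its own mean over the 4 libraries, on the log2(CPM + 0.1) scale, with a black line at the median of each library. The medians lie between −0.05 and 0.06, and Fat replicate 2 holds an upper tail with Rplp2, Rpl10a, Rpl36 and Rps10.

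The 3 stalk proteins, which form one structure on the large subunit, differed in this respect. Rplp2 had 61.7 and 79.7 CPM in Con and 67.3 and 149 CPM in Fat. Fat replicate 2 was the high library, and Fat replicate 1 lay between the Con libraries. The log2 fold change was 0.52 ± 0.32 (adjusted p = 0.38), −0.06 without Fat replicate 2, and 1.09 with an adjusted p of 0.0016 without Fat replicate 1, where the lone Fat library is assumed to vary like the Con libraries. Rplp1, its partner in the stalk dimers, had 295 and 363 CPM in Con and 283 and 419 CPM in Fat, with both extremes in Fat (0.08 ± 0.17, adjusted p = 0.84). Rplp0, the base of the stalk, had 550 and 562 CPM in Con and 526 and 548 CPM in Fat (−0.05 ± 0.06, adjusted p = 0.65). In Rplp0 both Fat libraries were below both Con libraries, and Fat replicate 2 was not raised. Rps10, a 40S protein near the entry of the messenger RNA that was picked out after its values were seen, had 43.8 and 58.7 CPM in Con and 47.3 and 79.0 CPM in Fat (0.27 ± 0.23, adjusted p = 0.53), and −0.10 without Fat replicate 2. Without Fat replicate 1, Rps10, Rpl10a, Rpl17 and Rplp2 were called higher, 4 of 81 genes beside 3.4% of all genes called higher in that fit, and Rps27a was not. Without Fat replicate 2 no ribosomal protein gene was called, beside 3.8% of all genes.

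On TPM, with the same genes tested, 3 genes were called higher and none lower, beside 3.41% and 2.94% of all genes. Among them were Rps27a and Rps12, a protein of the small subunit's beak. Rps12 had 16.3 and 18.3 TPM in Con and 24.9 and 23.4 TPM in Fat (log2 fold change 0.48, adjusted p = 0.032), and 0.44 on CPM (adjusted p = 0.087). On either scale both Fat libraries were above both Con libraries. The exactly shared part of Rps12 was 82.5%.

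The related copies were compared with their main genes as the log2 ratio of TPM within a library. Rpl22l1 stood beside Rpl22, its near relative on the 60S subunit, at 126 and 117 TPM in Con and 106 and 119 TPM in Fat, while Rpl22 had 139 and 126 TPM in Con and 137 and 145 TPM in Fat. The log2 ratio of Rpl22l1 to Rpl22 was −0.14 and −0.11 in Con and −0.36 and −0.28 in Fat. The ratio was lower in each Fat library, with a difference of −0.20 (exact permutation p = 0.333, the smallest the design allows). The copies Rpl36al and Rps27l exceeded the listed levels of Rpl36a and Rps27 by a mean log2 ratio of 6.73 and 6.67 in Con and 6.38 and 6.43 in Fat. These main genes were listed with 10 to 39 reads a library and shared 84.6% and 98.5% of their stretches exactly, so the ratios are uncertain. Rpl7l1, a relative of Rpl7 with a role in ribosome assembly, stood below Rpl7 by a mean log2 ratio of −3.07 in Con and −2.98 in Fat. Rpl39l, the relative of Rpl39 best known from testis, stood at −5.31 and −5.24 below Rpl39. It held 12.4 and 12.1 TPM in Con and 12.0 and 14.7 TPM in Fat, with no shared stretch. Rps4l stood at −5.87 and −5.69 against Rps4x, Rps27rt at −0.44 and −0.58 against Rps27 and Rpl3l at −7.44 and −7.89 against Rpl3. An exact permutation p below 0.333 was not possible for any of these 8 ratios. As for Rpl22l1, the groups did not overlap for Rpl7l1, Rpl36al and Rps27l (exact permutation p = 0.333 each). They overlapped for Rpl39l, Rps4l, Rps27rt and Rpl3l. For single genes in CPM rather than ratios, the groups did not overlap, in either direction, in 55.6% of all genes tested.

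Other genes of translation were taken from fixed lists. The ribosomal genes outside the symbol rule, among them Rpsa, Fau and Rack1 (listed as Gnb2l1), had a median log2 fold change of −0.11. All 4 were negative and none was called, beside 9.0% of all genes tested. Rpsa, a 40S protein also known as the laminin receptor, had 58.6 and 63.9 CPM in Con and 58.1 and 52.3 CPM in Fat. Fau, which encodes a ubiquitin-like protein fused to the 40S protein S30, had 20.3 and 22.3 CPM in Con and 17.8 and 19.7 CPM in Fat. Each Fat library was below each Con library in both genes (adjusted p = 0.27 and 0.26). Rack1, a scaffold on the small subunit, had 675 and 729 CPM in Con and 677 and 687 CPM in Fat, with overlapping groups.

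Medians were 0.09 for 11 elongation genes, 0.03 for 36 initiation genes and 0.06 for 10 genes regulating TOP messenger RNAs or ribosome production. None of them was called in either direction, beside 9.0% of all genes tested. At an unadjusted p under 0.05 there were 0, 3 (all higher) and 3 (2 higher and 1 lower), beside 24.1% of all genes. Among the 36 ribosome assembly genes, 3 were called higher and none lower, beside 3.99% of all genes called higher, with a median of 0.12. At an unadjusted p under 0.05 there were 14 of the 36, all higher, beside 1467 higher of all 12470 genes tested. Nop16, a nucleolar protein, had 28.0 and 28.5 CPM in Con and 40.6 and 35.7 CPM in Fat (log2 fold change 0.43 ± 0.08, adjusted p = 0.019). Polr1a, the largest subunit of RNA polymerase I, which transcribes ribosomal RNA, had 28.8 and 28.6 CPM in Con and 35.1 and 34.7 CPM in Fat (0.28 ± 0.06, adjusted p = 0.033). Gnl3, nucleostemin, had 43.9 and 43.5 CPM in Con and 53.7 and 52.4 CPM in Fat (0.28 ± 0.06, adjusted p = 0.026). Both Fat libraries were above both Con libraries for 25 of the 36 assembly genes, against 15 of the 81 ribosomal protein genes and 29.4% of all genes. They were below them for 1 of the 36, against 26.2% of all genes. Whether the lists differ was not tested. With any 1 library left out, Polr1a (log2 fold change 0.27 to 0.29) and Gnl3 (0.26 to 0.30) lost their calls. Polr1a was also not called on TPM (adjusted p = 0.073), with DESeq2 (adjusted p = 0.078) or with GC and length removed. Nop16 was called without Con replicate 1, Con replicate 2 or Fat replicate 2, and lost its call without Fat replicate 1 (adjusted p = 0.059). The assembly genes called without Fat replicate 1 and without Con replicate 2 included Fbl and Bop1, in that order, which were not called with all libraries and were picked out after their values were seen.

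**Figure D5:**
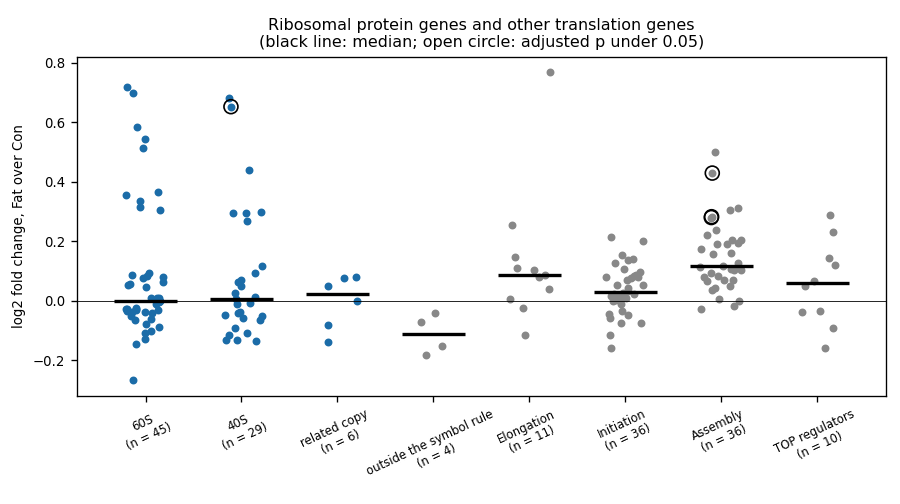
Log2 fold change of Fat over Con for the tested 60S, 40S and related-copy genes (blue) and for the other translation lists (grey), with a black line at each median and a ring around genes at an adjusted p under 0.05. The medians of the 60S and 40S genes lie at −0.00 and 0.01, and the assembly list has a median of 0.12 with 3 ringed genes.

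Markers of the cells in the culture were measured beside these results. The summed CPM of the macrophage markers (8 of 9 in the files) was 33187 to 35199 in Con and 26266 to 27830 in Fat. Most of that sum was Lyz2, with 28720 and 26819 CPM in Con and 21516 and 20347 CPM in Fat, which did not pass the test (adjusted p = 0.21). Mertk and Fcgr1 were called lower, Csf1r, Cd14 and Mrc1 had log2 fold changes of −0.21, −0.15 and −0.22 without passing, and Cd68 and Itgam had 0.09 and 0.07. That of 10 adipocyte markers was 20.2 to 20.3 in Con and 24.5 to 27.6 in Fat. Nearly all of the Con sum was Lipe, which is not limited to adipocytes, with 20.1 and 20.02 CPM in Con and 16.3 and 18.6 CPM in Fat (log2 fold change −0.20). Cidec and Car3 were called higher, from Con values at or near 0. Both passed the filter only through the Fat libraries. Apart from Lipe, the other adipocyte markers did not reach the filter and were not tested. Both Fat libraries lay below both Con libraries in the sums of the neutrophil list (351 and 352 against 360 and 411 CPM), the B cell list (18.0 and 21.8 against 22.5 and 23.5 CPM) and the T cell list (2.32 and 2.60 against 3.84 and 4.84 CPM). They lay above them in the endothelial list (6.89 and 7.56 against 4.58 and 6.28 CPM). Over all genes tested, 26.2% lay below and 29.4% above in this way. No gene of these 4 lists was called, and some members had overlapping groups, among them S100a8, Ltf and Cd79b. The stromal list overlapped, at 614 and 638 CPM in Con and 512 and 656 CPM in Fat, with Dcn called lower. The erythroid list was at most 0.0533 CPM. The part of these markers in the ribosomal protein values was not tested.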

How the data were processed

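Bulk polyA RNA of 4 libraries, 2 Con and 2 Fat, was compared. The samples were grouped by their titles. The authors made the libraries with a TruSeq stranded mRNA kit, sequenced single reads of 75 bases and deposited CPM values, which are reads scaled by library size, and TPM values, which are also scaled for transcript length. The submitters' processing notes name the build GRCm39. The aligner, the counting and the annotation are not given in the sources used here. All CPM values (100%) were whole multiples, within 0.001 reads, of 1 read's worth.

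A gene was tested if 2 or more libraries reached 0.5 CPM. The two-sided test was that of limma 3.58.1 (R 4.3.3), which modelled log2(CPM + 0.1) with a trend of the variance on the mean, and p-values were adjusted by Benjamini-Hochberg over all genes tested. Fold changes are on this scale and understate those of low genes. Single values were compared with exact permutation tests. The alternatives were edgeR 4.0.16 and DESeq2 1.42.0 on the recovered reads, TPM, other pseudocounts, filters and scalings, a GC and length correction, the replicate block and each library left out. Shared sequence was searched with BWA 0.7.19 in GENCODE vM21 transcripts, on another build than that of the submitters, for annotated transcripts only. The fitting code was tested on simulated data.

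The genes named were those called, the 6 largest and 6 most negative changes, the 3 highest and 3 lowest levels, the stalk genes, Rps6, Rps27a, Rpl10a, Rps19bp1, the related copies with their main genes, the ribosomal genes outside the symbol rule, called genes of other lists, and those under the filter (42 genes). Another 6, Rps10, Rpl4, Rpl34, Rps12, Rpl17 and Rps18, were picked after their values were seen, and Rpl7a for its number of pseudogenes. Some genes are counted in the totals but not reported here by name. The members and lists were chosen with earlier results of these data known.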

Additional observations from a re-analysis of the deposited data

How the results depend on the processing

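The number of ribosomal protein genes called higher, 1 in the analysis above, was 0 with no filter (2.48% of all genes), at a mean of at least 5 CPM, which leaves out Rps27a (4.18%), and with DESeq2 (3.69%). Among the 11 tested genes sharing at most 20% it was 0, beside 3.99% of all genes. It was also 0 without the mean-variance trend, a fit that called 0.152% of all genes higher and so says little about these genes. It was 3 on TPM (40S genes 3; 3.41%) and 3 with GC and length removed (60S genes 2; 5.05%). With 1 library left out, where 1.57% to 4.16% of all genes were called higher, it ran from 0 to 4, for 60S genes from 0 to 3 and for 40S genes from 0 to 1. The median then ran from −0.056 to 0.068, for 60S genes from −0.052 to 0.070, for 40S genes from −0.059 to 0.040 and for the related copies from −0.10 to 0.049. The difference in share was 0.059 points on TPM.

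The labels number the replicates alike but name no shared mouse, culture or batch, and there are only 2 pairs. Deviations of same-numbered libraries correlated at 0.20 over 12470 genes. Where the average level reached 5 CPM, the correlation was higher, at 0.34 (9760 genes). Over the 81 ribosomal protein genes it was 0.17. With the replicate block 9 of these were called higher (5 of 60S, 4 of 40S) beside 10.2% of all genes, and with GC and length removed as well 11 (6 and 5), with 1 lower (a 40S gene), beside 1242 higher and 1332 lower of all 12384 genes in that fit. On data simulated without any effect of the replicate number, the block and DESeq2 each made more false calls than the analysis without the block. That simulation cannot say how the block performs where same-numbered libraries share an effect. The block called 13 assembly, 2 elongation and 2 initiation genes higher, and 2 regulators higher and 1 lower. With GC and length removed as well these were 10, 3, 3, 3 and 2, and 1 of the 4 ribosomal genes outside the symbol rule was called lower, beside the same numbers over all genes.

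Assembly calls were 0 without the mean-variance trend (0.152% of all genes) and 1 to 2 with 1 library left out (1.57% to 4.16%). The latter gave 0 to 1 calls for elongation and for regulators, and GC and length removal gave 1 initiation and 1 regulator call (5.05%). On TPM the medians were 0.15 (assembly), 0.063 (initiation) and 0.091 (regulators). With GC and length removed, with or without the block, they were 0.14, 0.062 and 0.041, and 0.13 for elongation. For regulators the median was 0.050 by median ratios and with DESeq2, and 0.053 with edgeR. With 1 library left out it ran from 0.12 to 0.18 (assembly), 0.019 to 0.053 (initiation) and 0.025 to 0.079 (regulators).

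Genes near 0 changed sign. On TPM the log2 fold change was 0.0020 for Rpl34, 0.030 for Rpl7l1 and 0.024 for Rps18. Genes that kept their sign also moved up from CPM to TPM, such as Rpsa from −0.150 to −0.119, Eef2 from 0.007 to 0.039 and Gnb2l1 from −0.041 to −0.009. With GC and length removed, with or without the block, it was 0.00958 for Gnb2l1, 0.026 for Rpl4, 0.045 for Rpl7l1, −0.017 for Rps4l and 0.0020 for Rps6. With 1 library left out it ran from −0.27 to 0.54 for Rpl23a, −0.081 to 0.26 for Rpl24, −0.034 to 0.052 for Rpl32, −0.093 to 0.033 for Rpl34, −0.057 to 0.075 for Rpl39, −0.062 to 0.22 for Rpl39l, −0.026 to 0.022 for Rpl7l1 and −0.21 to 0.36 for Rplp1. It ran from −0.060 to 1.09 for Rplp2, −0.10 to 0.64 for Rps10, −0.064 to 0.048 for Rps18, −0.012 to 0.10 for Rps19bp1, −0.39 to 0.49 for Rps4l, −0.097 to 0.015 for Rps6 and −0.095 to 0.014 for Gnb2l1. The causes were not tested. With 2 libraries a group, genes with few reads have a large counting error. Not all of the genes that changed sign had few reads, and Gnb2l1 had 22908 to 28157 a library.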
